A study of Mus musculus with 7 samples.

Results

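The nuclear genes of respiratory complexes II, III, IV and V, with cytochrome c and the assembly factors that share their names, were compared between beta cells of early-weaned and suckling mice. Genes were taken by symbol: Sdha to Sdhd, symbols starting with Sdhaf, Uqcr, Cox and a digit, or Atp5, and Cyc1 and Cycs. Among probe sets annotated with 1 gene symbol this gave 60 of the 19938 genes on the array. They comprised 4 subunits and 4 assembly factors of complex II, 9 subunits of complex III, cytochrome c, 17 subunits and 8 assembly factors of complex IV, and 17 subunits of complex V. All 7 mice were insulin-Cre; Rosa26-LSL-YFP animals on the ICR background, examined at postnatal day 25, so the Cre and the reporter were also present in the controls. The 3 weaned mice had been taken off the mother early, at day 18, and the 4 suckling mice had stayed with her. From dissociated islets, 2000 to 6000 YFP-positive cells of each mouse were sorted, and the RNA of each mouse was amplified and hybridised to 1 Affymetrix array. The Cre is driven by the insulin promoter, so the sort depends on past or present activity of that promoter. Arrays are named below by group and by the mouse number in the labels, and values are always given in the order weaned 4, 5 and 12, then suckling 2, 9, 11 and 12.

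Complex II (succinate dehydrogenase) oxidises succinate in the citric acid cycle and hands the electrons to ubiquinone. Complex III passes them on to cytochrome c and complex IV uses them to reduce oxygen, and the proton gradient built by these steps and by complex I drives ATP synthesis by complex V. In beta cells this chain links glucose to insulin secretion, because the ATP it yields closes potassium channels in the plasma membrane, and the resulting depolarisation lets calcium enter and triggers exocytosis. Complex II is encoded wholly in the nucleus, while the catalytic cores of complexes III and IV and part of the membrane sector of complex V are encoded in mitochondrial DNA.

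The deposited intensities were placed on a log2 scale, on which a difference of 1 is a doubling, and differences are weaned minus suckling. The sorted cells gave signal for 9 measured beta-cell markers, with array means of 9.69 to 9.85 log2 units in the weaned and 9.71 to 9.82 in the suckling group. Gcg, Sst and Ppy, the hormones of the other islet cells, were also strong, at 10.73 to 12.32 log2 units over all arrays, so the sort was not free of other islet transcripts. All 14 measured acinar transcripts had a lower mean in the weaned group. The acinar mean was 4.17, 4.11 and 6.33 log2 units in the weaned mice and 8.06, 7.86, 4.52 and 5.39 in the suckling mice. Suckling mice 2 and 9 were thus the highest, and Ptf1a, an acinar transcription factor, had both group means at background. In RNA of a whole sort, fewer cells of a type and less RNA per cell cannot be told apart. The label of each array also carries one code in every weaned sample and another in every suckling sample, so whatever the codes stand for and weaning cannot be told apart.

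Transcripts of complexes II to V differed little between early-weaned and suckling mice, and no single member separated the groups beyond the correction for multiple testing. In the limma fit over all genes, 0 of 60 members passed an adjusted p of 0.05 (lowest adjusted p = 0.572), a threshold passed by 0.015% of all genes. Before adjustment, p was under 0.05 for 3 members with a higher weaned mean (4.39% of all genes) and for 2 with a lower one (3.19% of all genes). Together these are 8.33% of the members, close to the 7.58% of all genes. Cox8b, among the 2 lower members, had signal near background. Over the 58 members above background the share was 6.90%, beside 8.86% of genes above background. The values of the 2 groups did not overlap for 4 members with the weaned mice higher (3.9% of all genes) and for 2 with the weaned mice lower (3.43%). The 6 members are 10% of the set, against 7.32% of all genes and 11.8% of the brightest 10% of genes, to which 44 of the 60 members belong. Cox8b is also among these 6. Above background the share was 8.62% of members beside 8.40% of genes. The number of arrays limits the precision: the standard error of a member's log2 difference had a median of 0.13 and ranged from 0.10 to 0.30. For 56 of the 60 members the 95% interval of the difference lay within 1.5-fold in either direction, as it did for 15192 of the 19938 genes and for 1760 of the 1994 genes of the brightest 10%. It lay within 2-fold for 59 members, beside 19467 of all genes and 1967 of the brightest 10%, so bright genes in general had narrow intervals.

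More members had a higher than a lower weaned mean, by small amounts. Of the 60 members, 42 (70%) had a higher and 18 a lower weaned mean, with a median log2 difference of 0.074, beside 0.00047 over all genes and 0.017 over the brightest 10%. The weaned mean was higher for 50.1% of all genes and for 54.2% of the brightest 10%. Complex III had 8 of 9 subunits higher (median 0.14), complex V had 15 of 17 higher (median 0.090), complex II 3 of 4 (0.069) and the common subunits of complex IV 7 of 10 (0.055). Of the 7 tissue-restricted isoforms of complex IV, 5 were lower, and the median was -0.097. Of these 5, Cox8b and Cox7b2 lay near background and Cox8c around it, so only Cox6a2 and Cox4i2 were lower with signal clearly above it. The 12 assembly factors split evenly, 6 and 6, with a median of -0.0087. For comparison, 33 of 43 genes taken for complex I (symbols starting with Nduf) were higher with a median of 0.16. So were 61 of 77 mitochondrial ribosomal protein genes, with a median of 0.12. The Nduf symbols include Ndufa4, which is listed again below as a late-assigned subunit. No difference between complexes was tested.

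**Figure D1:**
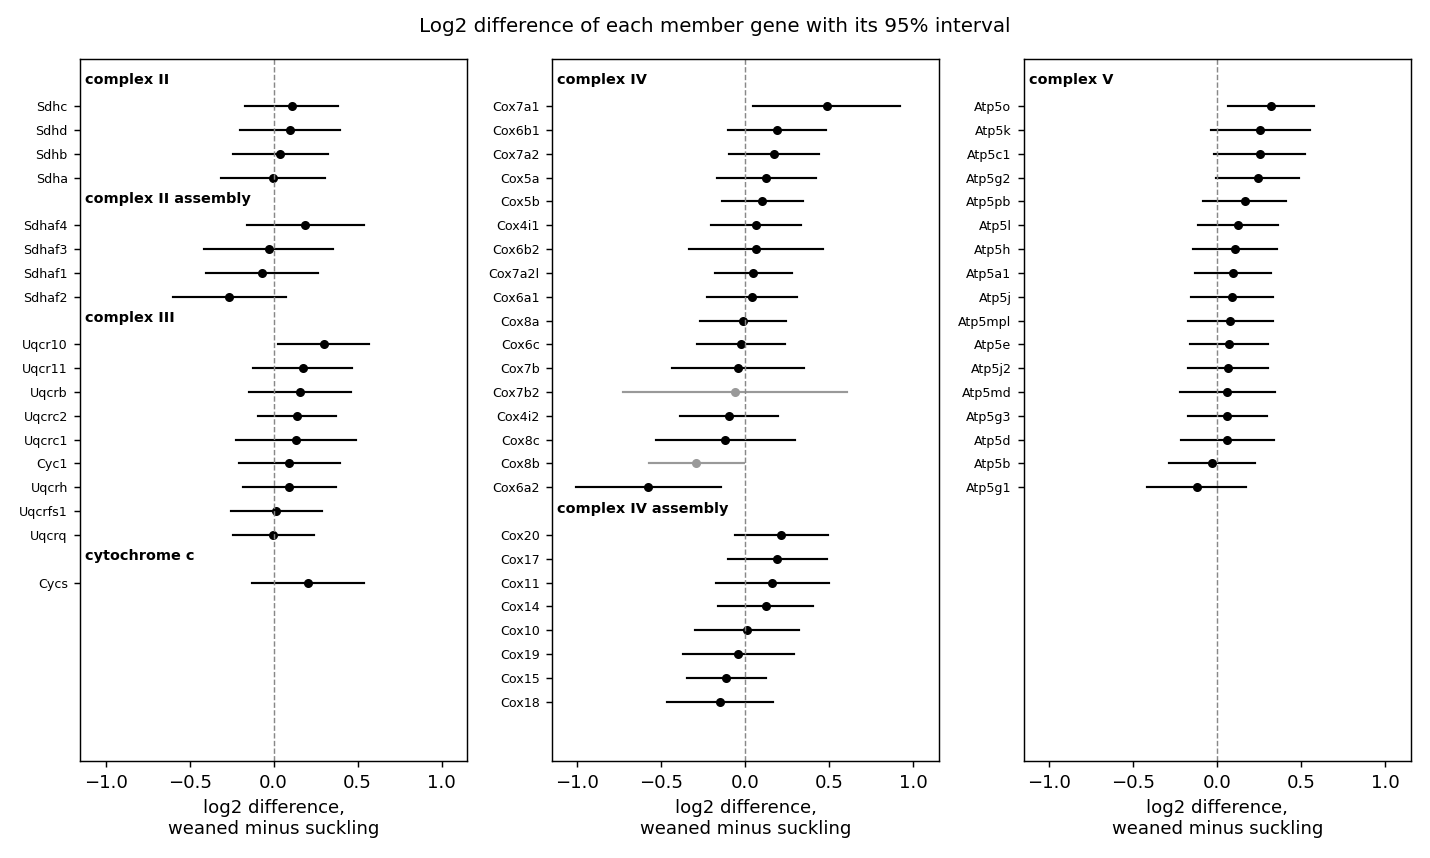
Log2 difference (weaned minus suckling, horizontal axis) of each of the 60 members with its 95% interval from limma, grouped by complex. Grey symbols mark the 2 members near background, Cox7b2 and Cox8b. Points of complexes III and V lie mostly to the right of 0, while Cox6a2 lies furthest to the left at -0.58 and Cox7a1 furthest to the right at 0.48.

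The small differences were uneven over the arrays. Over the 58 members above background, suckling mouse 2 was the lowest of the 7 arrays for 26, while weaned mouse 12 was the highest for 21 and weaned mouse 4 for 16. The mean over all members was 8.70, 8.61 and 8.74 log2 units in the weaned mice and 8.51, 8.66, 8.69 and 8.63 in the suckling mice, so the groups overlapped. Suckling mouse 2 also had the highest acinar mean, and the part of acinar RNA in the members' values was not tested. Without suckling mice 2 and 9, the pair with the most acinar signal, the median over all members was 0.057, and with the acinar mean as a covariate it was 0.063.

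**Figure D2:**
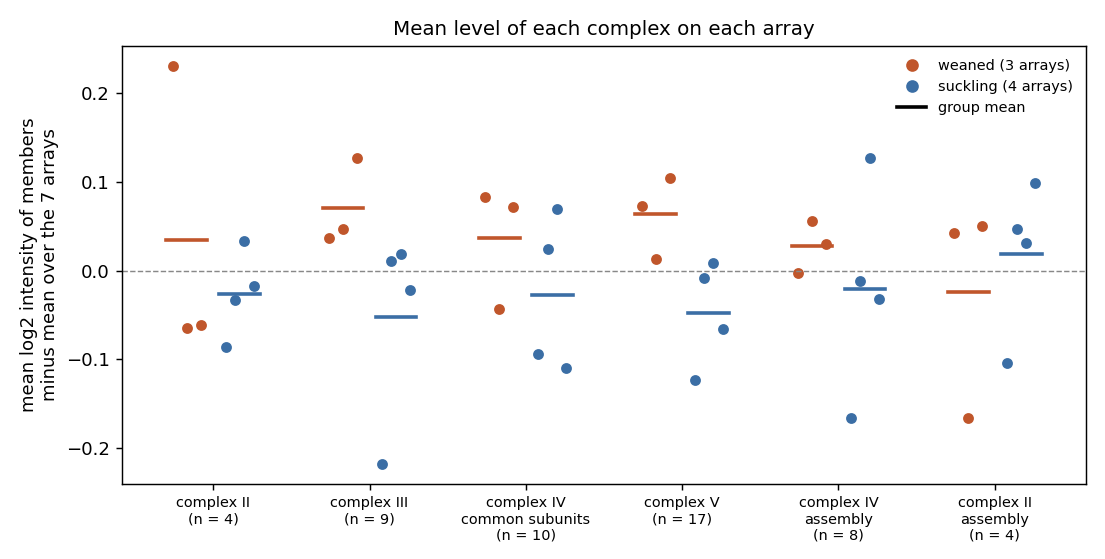
Mean log2 intensity of the members of each complex on each array, shown as the deviation from the mean over the 7 arrays (vertical axis), with weaned arrays in orange, suckling arrays in blue and group means as bars. For complex III and complex V every weaned point lies above every suckling point, and suckling mouse 2 is the lowest point of both. For complex II the weaned mean rests on weaned mouse 4.

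Nuclear genes of the respiratory chain are known to share control by a few transcription factors, so the members' promoters were searched for the short motifs of these factors. RefSeq promoter sequences (build GRCm38.p6) were matched for 46 of the 60 members, and the 250 bases before each start were searched on both strands. The letters GCATGCGC, bound by the nuclear respiratory factor NRF1, occurred in 6 of 46 members (13.04%) against 2.32% of 27025 promoters. The letters CCGGAAG, bound by ETS factors such as GABP, occurred in 12 members (26.1%, against 7.05%). The GC box GGGCGG was found in 20 members (43.5%, against 32.9%) and the YY1 letters AAGATGGC in 1 (2.17%, against 1.59%). The oestrogen-related receptor letters AAGGTCA were found in 2 members (4.35%, against 4.05%). The TATA box TATAAA was found in 4 (8.70%, against 12.97%) and CAGCTG, a form of the E-box, in 2 (4.35%, against 12.8%). A match describes the sequence and does not show that a factor binds there. The 40 bases around the NRF1 letters of the 6 members are shown 5′ to 3′ on the gene's strand, with the match in capitals (10 capitals where matches on both strands overlap).
Atp5g2 chr15:102671066-102671105 minus strand: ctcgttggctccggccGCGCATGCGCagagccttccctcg
Atp5k chr5:108434426-108434465 minus strand: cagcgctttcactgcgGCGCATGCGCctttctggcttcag
Atp5l chr9:44920953-44920992 minus strand: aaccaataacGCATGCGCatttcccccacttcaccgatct
Cox6a1 chr5:115349097-115349136 minus strand: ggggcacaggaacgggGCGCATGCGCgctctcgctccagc
Cycs chr6:50566606-50566645 minus strand: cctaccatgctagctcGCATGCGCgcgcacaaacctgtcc
Sdhb chr4:140961201-140961240 plus strand: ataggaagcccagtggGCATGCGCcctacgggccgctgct
The 6 genes span complexes II, IV and V and cytochrome c. All 6 had a higher weaned mean, with a median log2 difference of 0.16, and of the 40 members without these letters 28 were higher, with a median of 0.067. None of the 6 passed the test. Cox6a1 (0.039, SE 0.12) and Sdhb (0.040, SE 0.12) differed by less than their standard errors. Without weaned mouse 4 both had a lower weaned mean (-0.0039 and -0.082). Atp5g2, Atp5k and Cycs kept their sign under every alternative tried. Further probe sets of Atp5g2 and Atp5l were also higher, but a second probe set of Cycs, at a similar signal, differed by -0.010. The 12 members with the ETS letters had a median of 0.095 (10 higher), and the 34 without them 0.063 (24 higher). For 3 other motifs the members with the letters had the lower median. The 20 members with the GC box had a median of 0.044 (13 higher), against 0.11 for the 26 without it (21 higher). With the TATA box 3 of 4 members were higher, with a median of 0.035 against 0.091 without it. Neither of the 2 members with the E-box letters was higher (Atp5b at -0.031 and Cox8b at -0.29, median -0.16 against 0.091). Cox8b lay near background, and so did Cox7b2, a member with both the GC box and the TATA box. The E-box letters are held by too few members to compare. So are the oestrogen-related receptor letters (2 members, 0.092 against 0.079) and the YY1 letters (1 member, Cox20). None of these differences was tested.

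In complex II 3 of 4 subunits had a higher weaned mean, and none passed the test. Sdha, the flavoprotein that oxidises succinate (probe set 10410625), measured 8.26, 7.95 and 7.78 log2 units in the weaned mice and 7.84, 8.04, 8.0 and 8.11 in the suckling mice. Sdhb, the iron-sulfur subunit that carries the electrons onward (probe set 10509858), measured 8.25, 7.83 and 7.95 log2 units in the weaned mice and 8.02, 7.97, 7.98 and 7.90 in the suckling mice. Weaned mouse 4 was the highest of all arrays for both, and the other weaned mice lay among or below the suckling mice. The log2 difference was -0.0015 (SE 0.14, adjusted p = 0.999) for Sdha and 0.040 (SE 0.12, adjusted p = 0.964) for Sdhb by limma. Sdhc and Sdhd anchor the enzyme in the inner membrane and form the ubiquinone site. Sdhc (probe set 10360046) measured 9.68, 9.58 and 9.78 log2 units against 9.47, 9.53, 9.80 and 9.49. Sdhd (probe set 10593356) measured 8.97, 8.62 and 8.48 log2 units against 8.57, 8.57, 8.59 and 8.66, again with weaned mouse 4 the highest. Their differences were 0.11 (SE 0.12) and 0.098 (SE 0.13), and that of Sdhc was 0.031 without suckling mice 2 and 9, 0.057 without weaned mouse 12 and 0.18 without suckling mouse 11. Without weaned mouse 4 the median of the complex was -0.062 instead of 0.069. For all 4 subunits the 95% interval lay within 1.5-fold, with a lowest bound of -0.31 and a highest of 0.39.

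The complex II assembly factors, which fit the cofactors into Sdha and Sdhb, had 1 of 4 means higher. Sdhaf2, required to attach flavin to Sdha (probe set 10465980), measured 5.76, 5.65 and 5.55 log2 units in the weaned mice and 5.58, 5.87, 6.14 and 6.07 in the suckling mice. Its weaned values lay low and close together, and only suckling mouse 2 fell among them. It differed by -0.26 (SE 0.15, adjusted p = 0.721), the lowest of the 12 assembly factors, and by -0.45 without suckling mice 2 and 9. Sdhaf4, which helps Sdha join Sdhb (probe set 10353545), measured 6.96, 6.99 and 7.20 log2 units against 6.51, 6.99, 7.12 and 6.82. All 3 weaned values lay within or just above the suckling range, which was widened by a low suckling mouse 2, and the difference was 0.19 (SE 0.16). It was 0.073 without suckling mouse 2, 0.082 without suckling mice 2 and 9, and 0.11 without weaned mouse 12. Sdhaf1 and Sdhaf3, which protect the iron-sulfur clusters of Sdhb, differed by -0.069 and -0.028.

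In complex III, the cytochrome bc complex, 8 of 9 nuclear subunits had a higher weaned mean, and none passed the test. Uqcr10, a small subunit near the Rieske protein and cytochrome c1 (probe set 10383887), measured 9.92, 9.90 and 10.08 log2 units in the weaned mice and 9.50, 9.62, 9.85 and 9.70 in the suckling mice. The weaned mice were all higher than the suckling mice, with weaned mouse 5 and suckling mouse 11 close together. By limma the difference was 0.30 (SE 0.12, adjusted p = 0.634), or 1.23-fold, and 0.19 without suckling mice 2 and 9. Uqcrc2, a core subunit on the matrix side (probe set 10556940), measured 8.89, 8.88 and 8.76 log2 units against 8.71, 8.71, 8.62 and 8.76. Weaned mouse 12 and suckling mouse 12 met at 8.76, the other weaned mice were higher, and the difference was 0.14 (SE 0.10, adjusted p = 0.794). Cyc1, the haem protein cytochrome c1 that hands electrons to cytochrome c (probe set 10424825), measured 7.68, 7.91 and 7.73 log2 units against 7.42, 7.86, 7.73 and 7.72. Its groups overlapped apart from a low suckling mouse 2, and the difference was 0.094 (SE 0.13).

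The other complex III subunits ranged from -0.0019 for Uqcrq to 0.17 for Uqcr11, small subunits of the membrane part. Uqcrb was at 0.16, the core subunit Uqcrc1 at 0.14 and the hinge protein Uqcrh at 0.092. Uqcrfs1, the Rieske iron-sulfur protein that takes electrons from ubiquinol, was at 0.017. The mean of the 9 subunits was 9.07, 9.08 and 9.16 log2 units in the weaned mice and 8.81, 9.04, 9.05 and 9.01 in the suckling mice. The weaned mice were thus all above the suckling mice, by 0.018 between the nearest arrays, with suckling mouse 2 far below the rest. The median of the complex was 0.039 without suckling mouse 2, 0.069 without suckling mice 2 and 9, and 0.13 with the acinar mean as a covariate.

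Cycs, which encodes the soluble electron carrier cytochrome c (probe set 10528170), measured 9.69, 9.14 and 9.57 log2 units in the weaned mice and 9.10, 9.33, 9.33 and 9.30 in the suckling mice. Weaned mice 4 and 12 were the highest and weaned mouse 5 lay among the suckling mice. Its log2 difference was 0.20 (SE 0.15, adjusted p = 0.792), and it was 0.37 without weaned mouse 5 and 0.091 without weaned mouse 4. Of its other probe sets one, at a similar signal, differed by -0.010 and the other, close to background, by 0.25, so the probe sets of this gene do not give one answer. Cycs has many processed copies in the mouse genome, and signal from such copies cannot be told apart here from the gene's own.

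The common subunits of complex IV, cytochrome c oxidase, had 7 of 10 means higher, and none passed the test. Cox7a2, a membrane subunit at the dimer interface (probe set 10595280), measured 9.18, 8.93 and 8.91 log2 units in the weaned mice and 8.68, 8.88, 8.89 and 8.91 in the suckling mice. The weaned mice were above the suckling mice, but weaned mice 5 and 12 lay next to the highest suckling mice, and only weaned mouse 4 stood clear of them. The difference was 0.17 (SE 0.12, adjusted p = 0.780), and 0.086 without weaned mouse 4 and 0.11 without suckling mice 2 and 9. Cox6b1, which joins the monomers on the side of cytochrome c (probe set 10562059), measured 11.10, 10.75 and 10.85 log2 units against 10.72, 10.83, 10.78 and 10.52. Weaned mouse 4 was the highest and suckling mouse 12 the lowest, the other arrays overlapped, and the difference was 0.19 (SE 0.13, adjusted p = 0.780). It was 0.086 without weaned mouse 4 and 0.12 without suckling mouse 12.

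Cox4i1, a subunit through which ATP slows the enzyme (probe set 10576029), measured 10.51, 10.26 and 10.23 log2 units against 10.20, 10.31, 10.40 and 10.18, a difference of 0.062 (SE 0.12). Cox6a1, the common form of subunit 6a (probe set 10532993), measured 10.81, 10.54 and 10.82 log2 units against 10.69, 10.70, 10.78 and 10.56, a difference of 0.039 (SE 0.12). Both genes had overlapping groups. Cox7a2l, which helps complexes III and IV associate (probe set 10399677), measured 10.61, 10.75 and 10.79 log2 units against 10.67, 10.68, 10.70 and 10.63, a difference of 0.047 (SE 0.10). The small membrane subunits Cox7b and Cox8a had differences close to 0. Cox7b (probe set 10358709) measured 11.20, 11.13 and 11.17 log2 units against 11.02, 11.58, 11.41 and 10.85, a difference of -0.046 (SE 0.17), and its suckling mice spread widely around tight weaned values. Cox8a (probe set 10465633) measured 10.14, 10.27 and 10.23 log2 units against 10.16, 10.12, 10.42 and 10.21, a difference of -0.013 (SE 0.11). Cox5a, Cox5b and Cox6c differed by 0.12, 0.10 and -0.025. Second probe sets of Cox5b, Cox6c and Cox7b had the opposite sign to the brightest, at -0.031, 0.047 and 0.040. That of Cox7a2l had the same sign, at 0.064. The 95% intervals of all 10 common subunits lay within 1.5-fold.

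The widest differences among all members were in the tissue-restricted isoforms of complex IV. Cox6a2, the form of subunit 6a typical of heart and skeletal muscle (probe set 10568369), gave a strong signal in these cells and measured 9.65, 9.15 and 10.07 log2 units in the weaned mice and 10.09, 10.20, 10.30 and 10.21 in the suckling mice. Every weaned mouse was below every suckling mouse, and the weaned mice were spread more widely than the suckling mice, with weaned mouse 5 the lowest and weaned mouse 12 next to the suckling values. The means were 9.62 ± 0.46 (SD, n = 3) and 10.20 ± 0.09 (n = 4), a 1.49-fold lower level in the weaned group. The log2 difference was -0.58 (SE 0.19, adjusted p = 0.572) by limma, with a 95% interval from -1.01 to -0.15. Without weaned mouse 5 the difference was -0.34, and without weaned mouse 12 it was -0.80. It was -0.63 without suckling mice 2 and 9 and -0.50 with the acinar mean as a covariate. Weaned mouse 5 also had the highest mean of 9 immediate early transcripts, genes switched on within minutes of stimulation or of tissue dissociation, at 6.94 log2 units where the other arrays were at 5.73 to 6.22. Of these 9, 8 had a higher weaned mean, and their part in the Cox6a2 difference was not tested.

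Within each array, Cox6a2 minus Cox6a1 was lower in every weaned than in every suckling mouse, with a difference of -0.62 between the group means on the log2 scale. The exact two-sided permutation test over the 35 arrangements of the arrays gave p = 0.0286, the smallest value it can reach, and an adjusted p of 0.152 over the 8 pairs of isoforms compared. These 8 include Atp5g2 minus Atp5g1, a pair added after its values were seen, and its p lowered this adjusted p. For Cox6a1, the common form, the limma difference was 0.039 with a 95% interval from -0.23 to 0.31.

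Cox7a1, the muscle form of subunit 7a (probe set 10551836), gave weak signal and measured 5.06, 4.42 and 5.08 log2 units in the weaned mice and 4.52, 4.03, 4.36 and 4.56 in the suckling mice. Weaned mice 4 and 12 were above all suckling mice and weaned mouse 5 lay among them. On the log2 scale the difference was 0.48 (SE 0.19, adjusted p = 0.634), and 0.70 without weaned mouse 5. The within-array difference Cox7a1 minus Cox7a2 differed by 0.31 between the groups (exact permutation p = 0.200, adjusted p = 0.320). The 2 muscle forms above background, Cox6a2 with strong and Cox7a1 with weak signal, thus had opposite signs. Both had weaned mouse 5 as the lowest weaned array.

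The other restricted forms gave dim signal. Background was set at 3.27 log2 units, the 95th percentile of the means of 1027 olfactory receptor genes. Cox8b, the muscle form of subunit 8 (probe set 10569008), measured 2.80, 2.5 and 2.68 log2 units against 2.96, 2.84, 3.16 and 2.86. Cox7b2, a testis form (probe set 10530417), measured 2.37, 2.97 and 3.88 log2 units against 2.96, 3.22, 3.0 and 3.37. Both had group means under background, so their differences of -0.29 and -0.061 are not read as changes of a transcript, although the groups of Cox8b did not overlap. Cox8c, a testis form (probe set 10397907), measured 3.11, 3.11 and 3.40 log2 units against 2.99, 3.75, 3.14 and 3.42, just around that level. Cox4i2, the form known from lung and from its response to low oxygen (probe set 10477179), measured 4.22, 3.88 and 4.06 log2 units against 4.10, 4.02, 4.13 and 4.35, a difference of -0.097 (SE 0.13). Cox6b2, another testis form (probe set 10559649), measured 4.49, 4.47 and 4.71 log2 units against 4.01, 4.64, 4.61 and 4.73, a difference of 0.061 (SE 0.18) with suckling mouse 2 standing apart. In the within-array comparison, Cox4i2 minus Cox4i1 differed by -0.16, Cox6b2 minus Cox6b1 by -0.13 and Cox7a2l minus Cox7a2 by -0.12 between the groups, with exact permutation p-values of 0.343, 0.686 and 0.486. No isoform pair passed an adjusted p of 0.05, which no single pair could have done. The smallest p this permutation test can reach is 0.0286, so over 8 pairs several would have to reach it together.

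**Figure D3:**
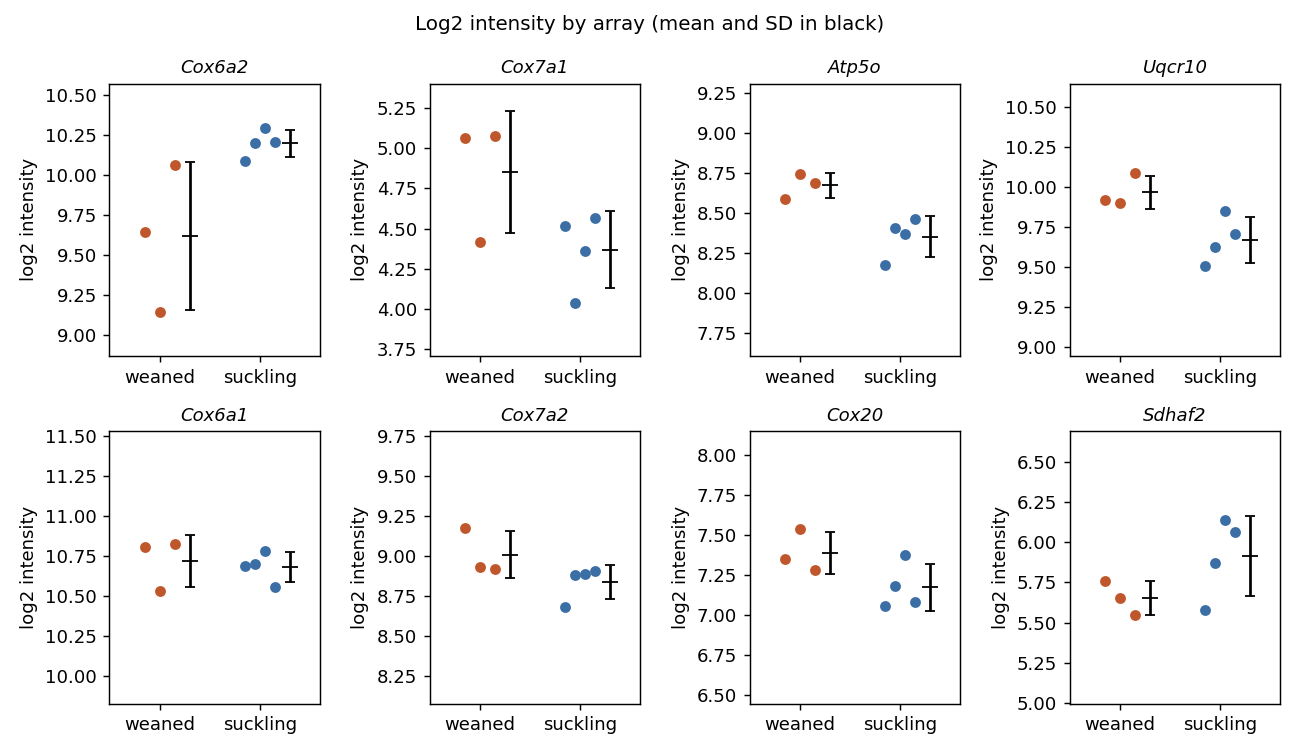
Log2 intensity (vertical axis, the same span in each panel) of 8 members on the 3 weaned (orange) and 4 suckling (blue) arrays, with the group mean and SD in black. Cox6a2, Atp5o and Uqcr10 show groups that do not overlap, Cox6a1 shows groups that do, and the weaned SD of Cox6a2 (0.46) is larger than its suckling SD (0.09).

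The 8 complex IV assembly factors had 5 means higher and a median of 0.065, and none passed the test. Cox20, a chaperone of the mitochondrially encoded copper subunit (probe set 10352127), measured 7.35, 7.54 and 7.28 log2 units in the weaned mice and 7.06, 7.18, 7.38 and 7.08 in the suckling mice. Suckling mouse 11 alone lay among the weaned mice, and the difference was 0.21 (SE 0.12, adjusted p = 0.723), or 0.14 without weaned mouse 5. Cox17, which carries copper to the complex (probe set 10435693), measured 10.05, 9.97 and 10.31 log2 units against 9.78, 9.96, 10.11 and 9.83, a difference of 0.19 (SE 0.13, adjusted p = 0.780) with overlapping groups, or 0.089 without weaned mouse 12. Cox11, also in copper delivery, differed by 0.16 and Cox14, a factor for the largest subunit, by 0.12. Cox10 and Cox15, which make haem A, differed by 0.010 and -0.11. Cox19, a copper factor, and Cox18, a membrane insertase, differed by -0.043 and -0.15.

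Complex V, the ATP synthase, had 15 of 17 means higher, and again no member passed the test. Atp5o, the stalk subunit that holds the catalytic head against the rotor (probe set 10440977), measured 8.59, 8.74 and 8.69 log2 units in the weaned mice and 8.17, 8.41, 8.37 and 8.46 in the suckling mice. Each weaned mouse was above each suckling mouse. The log2 difference was 0.32 (SE 0.11, adjusted p = 0.602), or 1.25-fold, with a 95% interval of 0.06 to 0.57. It was 0.26 without suckling mice 2 and 9. Atp5c1, the central rotor shaft (probe set 10479996), measured 10.15, 9.83 and 10.15 log2 units against 9.77, 9.90, 9.79 and 9.71. Weaned mice 4 and 12 were clearly above the suckling mice and weaned mouse 5 among them, and the difference was 0.25 (SE 0.12, adjusted p = 0.675). Atp5k, a small membrane subunit at the dimer contact (probe set 10532164), measured 10.36, 10.53 and 10.77 log2 units against 10.22, 10.40, 10.39 and 10.16. Weaned mouse 4 overlapped with the suckling mice, and the difference was 0.26 (SE 0.13, adjusted p = 0.687), or 0.15 without weaned mouse 12.

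The catalytic subunits of the head differed little. Atp5a1 differed by 0.092 (SE 0.10) and Atp5b by -0.031 (SE 0.11), and the small head subunits Atp5d and Atp5e by 0.059 and 0.069. Of the stalk subunits other than Atp5o, Atp5pb differed by 0.16, Atp5h by 0.11 and Atp5j by 0.090. The membrane subunits Atp5l, Atp5j2, Atp5md and Atp5mpl ranged from 0.060 to 0.12. The other probe sets of Atp5l ranged from 0.13 to 0.29, and those of Atp5md gave 0.074 and 0.17. The mean over the 17 members was 10.35, 10.29 and 10.38 log2 units in the weaned mice and 10.15, 10.26, 10.28 and 10.21 in the suckling mice. The groups did not overlap, with 0.0044 between weaned mouse 5 and suckling mouse 11. The median of the complex was 0.068 without suckling mice 2 and 9 and 0.085 with the acinar mean as a covariate.

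The c subunit, which forms the proton-driven ring of the rotor, is made from 3 genes whose mature proteins are the same and whose import sequences differ. Their promoters are shown because these genes, with one protein product, had unlike differences. The 250 bases before each RefSeq start (GRCm38.p6) are given 5′ to 3′ on the gene's strand, with matches to the NRF1 letters in Atp5g2 and to the oestrogen-related receptor letters, on the opposite strand, in Atp5g3 in capitals.
Atp5g1 chr11:96075632-96075881 minus strand: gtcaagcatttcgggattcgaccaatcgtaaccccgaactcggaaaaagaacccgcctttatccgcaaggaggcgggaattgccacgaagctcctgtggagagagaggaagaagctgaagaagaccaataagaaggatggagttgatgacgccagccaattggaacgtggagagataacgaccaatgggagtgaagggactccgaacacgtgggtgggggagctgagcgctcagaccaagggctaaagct
Atp5g2 chr15:102671048-102671297 minus strand: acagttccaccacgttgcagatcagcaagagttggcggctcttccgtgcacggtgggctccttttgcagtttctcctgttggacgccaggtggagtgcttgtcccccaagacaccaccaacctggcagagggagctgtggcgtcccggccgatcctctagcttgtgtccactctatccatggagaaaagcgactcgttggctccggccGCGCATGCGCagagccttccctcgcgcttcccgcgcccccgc
Atp5g3 chr2:73911327-73911576 minus strand: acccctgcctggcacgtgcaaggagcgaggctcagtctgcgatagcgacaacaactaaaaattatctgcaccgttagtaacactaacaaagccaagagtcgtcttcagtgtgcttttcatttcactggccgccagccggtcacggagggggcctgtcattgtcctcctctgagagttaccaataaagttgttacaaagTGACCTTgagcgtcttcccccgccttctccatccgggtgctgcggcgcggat
The Atp5g1 window held none of the 7 motifs searched. The E-box was searched only as CAGCTG, and the letters CACGTG, another form of it, stand unmarked in the Atp5g1 and Atp5g3 windows. Atp5g1 (probe set 10391100) measured 11.88, 11.74 and 11.85 log2 units in the weaned mice and 11.66, 12.11, 12.06 and 11.97 in the suckling mice. Its weaned mice lay below 3 of the suckling mice and above suckling mouse 2. Atp5g2 (probe set 10447566) measured 11.31, 11.20 and 11.36 log2 units in the weaned mice and 11.001, 11.10, 11.17 and 10.93 in the suckling mice, with every weaned mouse above every suckling mouse. Atp5g3 (probe set 10483756) measured 10.62, 10.49 and 10.67 log2 units against 10.48, 10.60, 10.54 and 10.50, with overlapping groups. The log2 differences were -0.12 (SE 0.13, adjusted p = 0.861) for Atp5g1, 0.24 (SE 0.11, adjusted p = 0.659) for Atp5g2 and 0.060 (SE 0.10, adjusted p = 0.926) for Atp5g3. That of Atp5g1 was -0.22 without suckling mouse 2, -0.19 without suckling mice 2 and 9, and -0.071 without suckling mouse 9. Other probe sets had the same signs: Atp5g2 gave 0.34 and 0.25 on its other 2, and Atp5g1 gave -0.15 on its second. Probe sets of these genes may also read processed copies, which cannot be told apart here.

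Within each array, Atp5g2 minus Atp5g1 was higher in weaned mice by 0.36 (exact two-sided permutation p = 0.0571, adjusted p = 0.152 over the 8 pairs), a pair added after its values were seen. Atp5g2 minus Atp5g3 was higher by 0.18, with the same p and adjusted p, and Atp5g1 minus Atp5g3 differed by -0.18 (exact permutation p = 0.114, adjusted p = 0.229). The groups of Atp5g2 minus Atp5g1 and of Atp5g2 minus Atp5g3 did not overlap. None of these pairs passed an adjusted p of 0.05, which the smallest possible permutation p of 0.0286 put out of reach of any single pair.

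**Figure D4:**
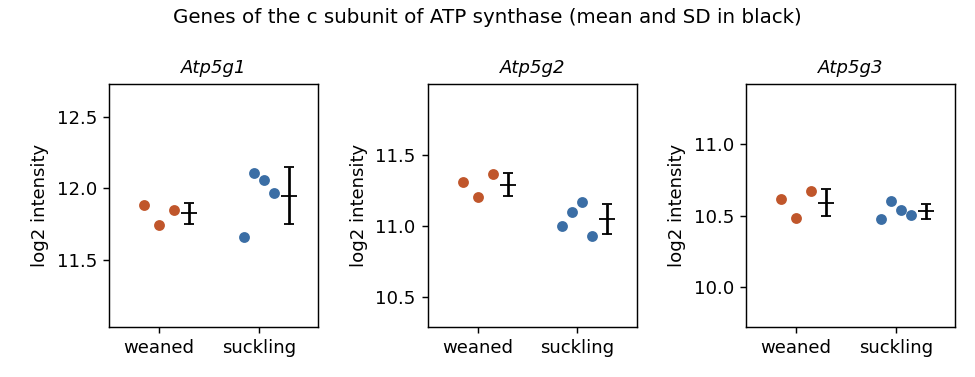
Log2 intensity (vertical axis, the same span in each panel) of the 3 genes of the c subunit on each array, weaned in orange and suckling in blue, with mean and SD in black. The weaned values of Atp5g2 lie above all its suckling values (difference 0.24), those of Atp5g1 lie within its suckling range (-0.12), and those of Atp5g3 overlap (0.060).

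Set against signal strength, the members sat high. The level of a probe set, its mean over the 7 arrays, placed 44 of the 60 members in the brightest 10% of genes, where the median member difference was 0.092 and the median of all genes 0.017. Members of the middle range were mainly assembly factors and scattered on both sides of 0. Such a ranking of different genes by level is only rough, because probe sets differ in how well they bind.

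**Figure D5:**
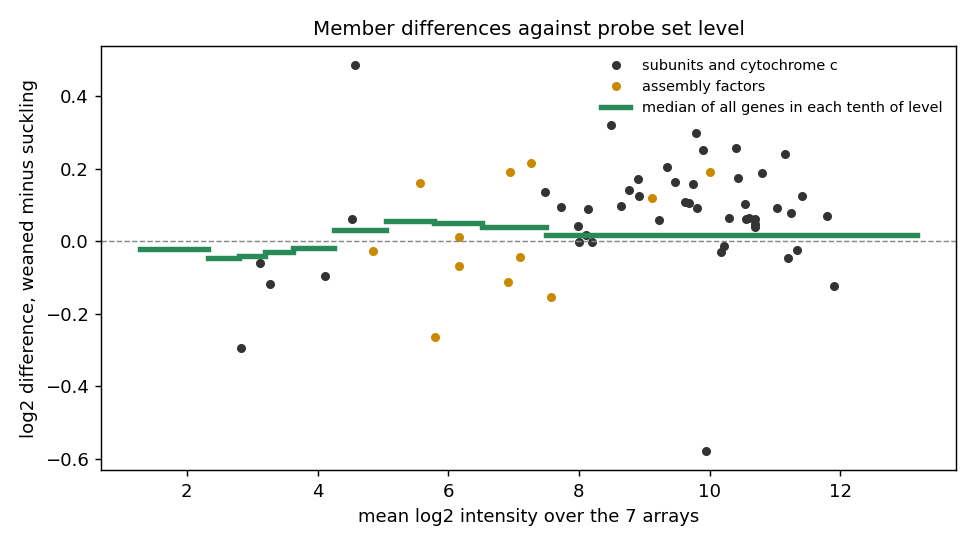
Log2 difference of each member (vertical axis, weaned minus suckling) against its mean log2 intensity over the 7 arrays (horizontal axis), with subunits and cytochrome c in black and assembly factors in yellow. Green bars give the median difference of all genes in 10 equal classes of level, 0.017 in the brightest class, and the bright subunits lie mostly above that bar, with Cox6a2 at -0.58 far below it.

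Other genes of the pathway were taken from lists chosen beside the members. Of 27 further assembly factors and regulators of the complexes, 24 were measured, and 21 had a higher weaned mean with a median of 0.11. None passed an adjusted p of 0.05 by limma, and 1 (4.17%) had an unadjusted p under 0.05, beside 7.58% of all genes. That gene, Atpif1, which encodes the inhibitor that stops complex V from hydrolysing ATP, measured 10.22, 10.22 and 10.45 log2 units in the weaned mice and 9.08, 10.17, 9.99 and 9.74 in the suckling mice. The weaned mice were above the suckling mice, of which mouse 2 was far below the others, and the difference was 0.55 (SE 0.23, adjusted p = 0.649). Of 7 further genes, the late-assigned subunit Ndufa4 and the carriers and porins that serve the chain, 5 were higher, and the median was 0.13. Usmg5, also on that list, is an older symbol of the member Atp5md. The subunits encoded in mitochondrial DNA (mt-Cytb, mt-Co1, mt-Co2, mt-Co3, mt-Atp6 and mt-Atp8) were not analysed here.

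Among 15 nuclear regulators of respiratory genes, 11 had a higher weaned mean with a median of 0.091. None passed an adjusted p of 0.05 by limma, and 1 in each direction had an unadjusted p under 0.05, together 13.3% of the list beside 7.58% of all genes. Tfb1m, a methyltransferase of the mitochondrial ribosome, measured 5.98, 6.07 and 5.63 log2 units in the weaned mice and 6.30, 6.24, 6.57 and 6.64 in the suckling mice. All weaned mice were below all suckling mice, and the difference was -0.54 (SE 0.15, adjusted p = 0.511). Nrf1, the factor whose letters are printed above in 6 promoters, measured 5.07, 5.23 and 5.14 log2 units in the weaned mice and 4.52, 4.42, 5.03 and 4.82 in the suckling mice. All weaned mice were above all suckling mice, and suckling mouse 11 came close, with a difference of 0.45 (SE 0.16, adjusted p = 0.589). Gabpa, the DNA-binding subunit of the ETS factor GABP, differed by 0.37 (SE 0.19) with suckling mouse 12 among the weaned mice. It measured 5.97 and 6.09 log2 units in suckling mice 2 and 9, and 6.29 and 6.79 in suckling mice 11 and 12. Nrf1 and Gabpa were thus both lowest in suckling mice 2 and 9, the pair with the most acinar signal. The part of acinar RNA in their differences was not tested. Ppargc1a, the coactivator of mitochondrial biogenesis, had both group means under background.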

How the data were processed

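Total RNA of sorted cells from 7 mice, 1 Affymetrix array each, was measured. Each mouse was 1 biological repetition per the labels' protocols. The deposited intensity values are on a linear scale (1.45 to 12755). The submitters' processing notes name RMA and Partek 6.6 as tools the authors used, without settings or order. RMA summarises probes over all arrays and pulls differences of dim probe sets towards 0. Array medians were 14.1 to 14.9, and 0 per-sample columns were left out.

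Log2 was taken. Of 35556 probe sets, 21789 carry 1 symbol in the platform annotation, 1621 several and 12146 none; the brightest single-symbol probe set stood for each gene, with no filter. The members' 60 genes had 83 single-symbol probe sets. Of the 23 not used, 19 had the sign of the brightest and 4 the opposite. A further 4 probe sets carry a matching symbol among several (those of Cox7c and Cox16) and were left out.

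Groups were compared with limma 3.58.1 (lmFit and eBayes, two-sided, no covariate, R 4.3.3), adjusted by Benjamini-Hochberg over 19938 genes. The pipeline was tested on simulated data, but the recovery it had to reach was set only for changes larger than those of any member. Isoform pairs were compared by exact permutation, 8 in all. Each single array was also left out, and 9 other settings were tried. Values are given on every array for the 10 members with the smallest p, the 2 of each complex with the smallest p, the isoform groups, the complex II subunits, Cyc1 and Cycs. Members and lists were chosen with earlier results of these data known.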

Additional observations from a re-analysis of the deposited data

Results flagged for a closer look

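Of 67 values examined within the suckling group (60 members and 7 means), 6 had 1 array standing apart from the other 3 by more than a set share of the group's range, and chance alone flags about 1 in 20. Suckling mouse 2 was the low array in 5 of them. Uqcrh, the hinge protein of complex III, was 10.84 log2 units there and 11.03 to 11.06 on the others. Cox7a2 was 8.68 against 8.88 to 8.91, Cycs 9.10 against 9.30 to 9.33, and the testis isoform Cox6b2 4.01 against 4.61 to 4.73. The mean of complex III was 8.81 against 9.01 to 9.05. The copper factor Cox11 was high on suckling mouse 11, at 5.84 log2 units where the others were at 5.33 to 5.41.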

How the results depend on the processing

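No member passed an adjusted p of 0.05 under any of the 16 alternatives (lowest 0.389, with genes below the median level left out). The median over all members stayed between 0.057 and 0.11. Centring each array on its median moved the median of all genes by 0.035, to which that 0.11 is relative. Before adjustment 3 members with a higher and 2 with a lower weaned mean had p under 0.05; the intensity trend with a robust prior gave 6 and 1, centring 5 and 1, either filter on dim genes 3 and 1, the acinar covariate 0 and 1, and omission of suckling mice 2 and 9 gave 0 and 1. Over all genes the same counts were 875 higher and 637 lower, 903 and 664 with the trend, 1184 and 434 with centring, 554 and 577 with the acinar covariate, and 482 and 607 without suckling mice 2 and 9. With the filters they were 761 and 475 of 14953 genes, and 609 and 299 of 9969. Leaving out single arrays gave 1 to 5 higher (1 without weaned mouse 12 or suckling mouse 9, 5 without weaned mouse 5) and 0 to 2 lower (0 without weaned mouse 5). Over all genes the counts were 829 higher and 699 lower without weaned mouse 12, and 642 and 529 without suckling mouse 9. Without weaned mouse 5 they were 842 and 493. Members with groups that did not overlap numbered 6, against 11 without suckling mice 2 and 9 and 8 to 18 without single arrays, where fewer arrays overlap less often by construction. Non-overlap over all genes was not counted with arrays left out. Over single arrays the median of complex II ran from -0.062 (without weaned mouse 4) to 0.13, and that of complex III from 0.039 (without suckling mouse 2) to 0.15. The median of complex IV was -0.035 without suckling mouse 2 and -0.016 without weaned mouse 12; the cause was not tested. Of the 32 members with values on every array, 22 kept their sign under every alternative in which they were tested. No paired analysis was possible because the groups share only 1 replicate number (12). With 3 and 4 arrays, intervals are wide, and 2 members lay near background.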
